A study of Drosophila melanogaster with 76 samples.

Results

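Twi binding was mapped by anti-Twi ChIP-seq, the sequencing of DNA from immunoprecipitated chromatin, and compared between S2 cells that expressed the transcription factor Twist (Twi) from a copper-inducible construct and wild-type S2 cells. S2 is a cultured Drosophila melanogaster line with properties of embryonic blood cells. Both groups received copper sulfate at 40 µM, were harvested 48 hours after induction and were precipitated with 10 µg of the same anti-Twi antibody. The comparison rests on 4 of the 76 libraries of the series, 2 from each group, and on 1 peak list per group. The Twi list held 12106 regions and the wild-type list 3260. The labels give no genotype beyond the construct and do not say whether the Twi line is 1 clone. They also do not say whether both groups were prepared together, so the line and any difference in preparation cannot be told apart. The other lists set beside these came from wild-type cells with anti-Zld (1000 µM copper sulfate), anti-Grh (100 µM) and anti-HA (40 µM). Further lists came from cells expressing Zelda (Zld, 1000 µM), an early embryonic activator, or Grainy head (Grh, 100 µM), an epithelial regulator, and from HA-Twi cells, which express HA-tagged Twi and were precipitated with anti-HA at 0, 10, 40 and 160 µM and, at 40 µM, with DMSO or a treatment labelled taz.

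Twi is a basic helix-loop-helix (bHLH) factor that binds short DNA motifs called E-boxes. In the early embryo it specifies the mesoderm: it activates genes for invagination, for fibroblast growth factor (FGF) signalling and for the later muscle, heart and fat body programmes. In a ChIP experiment a region called with the antibody from cells that lack the construct marks signal that does not need the expressed factor, whatever its source.

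Each list pools the 2 libraries of its group, so neither the spread of the libraries nor a test of the groups could be computed. Shares carry exact Clopper-Pearson 95% intervals, which cover counting error only, and neighbouring regions are not independent. The fold of a summit is the authors' own enrichment over local background. It is used to rank and describe regions within 1 list, and no strength is compared across lists. The local background recovered from fold and p-value was of similar size in both lists. Its 1st percentile was 40.2 in the Twi list and 42.6 in the wild-type list. The share of called peaks that was kept differed: 79.3% of the peak numbers up to 15275 were kept in the Twi list and 44% of those up to 7413 in the wild-type list. A region described as absent from a list is one that the deposited list does not hold. Since the cells were profiled in bulk, weaker binding and binding in fewer cells cannot be told apart.

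The Twi line had many regions that the wild-type list lacked, and its list held most wild-type regions as well. Of the 12106 Twi regions, 2687 (22.2%, 21.5 to 22.9) overlapped a wild-type region by at least 1 bp and are called shared. The other 9419 (77.8%) are called Twi-only. In the other direction 2964 of the 3260 wild-type regions (90.9%, 89.9 to 91.9) overlapped a Twi region, and 296 (9.08%, 8.12 to 10.1) did not and are called wild-type-only. In the other lines more of the matched wild-type list was missing, but their lists were shorter than the Twi list. The HA-Twi list at 40 µM, with 3862 regions, lacked 66.9% of the anti-HA regions. The Zld list (6451 regions) lacked 28.6% of the anti-Zld regions, and the Grh list (8354 regions) lacked 26.1% of the anti-Grh regions. When the Twi list was cut to its 3260 regions of highest fold, the same length as the wild-type list, 16.9% (15.6 to 18.2) of wild-type regions overlapped it, an alternative chosen after seeing the data. The HA-Twi list held 33.1% of the anti-HA regions, so the cut Twi list lacked the larger share. That setting changed the length of the list and kept only high folds, and the 2 cannot be told apart in it.

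Shared regions were rarest in the top ranks of the Twi list. Each list was cut by fold into 10 groups of nearly equal size. In the Twi group of highest fold (5.8 to 11.5), 9% (7.45 to 10.8) of regions were shared, against 32.2% (29.6 to 34.9) in the lowest group (1.31 to 2.13). In the wild-type list, 74.8% (69.8 to 79.5) of the top group lay in the Twi list, against 88.3% to 95.7% in the others. The regions of highest fold in wild type were thus the ones most often missing from the Twi list. Twi-only regions of high fold were often found again with the tagged protein: 58% (55 to 60.9) of those in the top group overlapped the HA-Twi list at 40 µM, against 5.82% in group 8 and 11.3% in group 10.

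**Figure D1:**
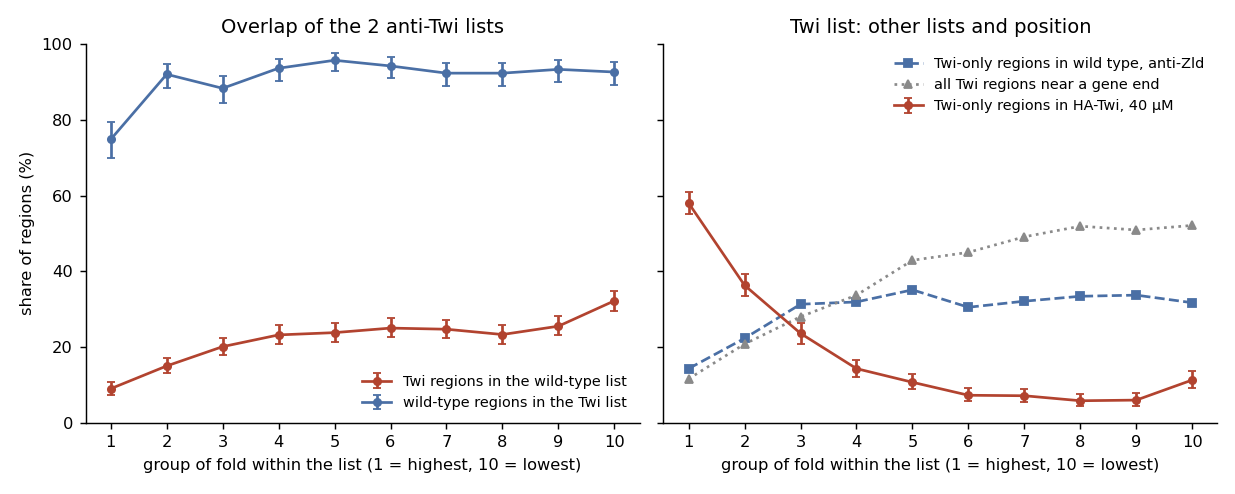
Share of regions (%) by group of fold within each list, group 1 of 10 holding the highest folds. Left, overlap of each anti-Twi list with the other; right, Twi-only regions in the HA-Twi list at 40 µM and in the wild-type anti-Zld list, and all Twi regions within 500 bp of a gene end. Bars are 95% binomial intervals where drawn. Shared regions made up 9% of the top group of the Twi list and 32.2% of the lowest.

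Shared regions were wider and held more summits; a wider region also has more room to overlap another. The median width was 1110 bp for shared Twi regions and 643 bp for Twi-only regions, and 12% of shared against 2.63% of Twi-only regions held 4 or more summits. The median fold was 2.91 in shared and 3.21 in Twi-only regions of the Twi list. Within shared regions 89.1% (88 to 90.1) of the wild-type summits lay within 250 bp of a Twi summit, but only 60.1% (58.8 to 61.5) of the Twi summits lay that close to a wild-type summit. In 1171 of the 2687 shared regions (43.6%) the Twi list held a further summit beyond that distance.

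Shared regions were split by the place of their highest Twi summit. In 1870 regions it lay within 250 bp of a wild-type summit; these had a median width of 840 bp and a median Twi fold of 2.65, and 57.8% (55.5 to 60) of them lay within 500 bp of a gene end. In 817 regions it lay farther away; these were 2034 bp wide at the median with a fold of 3.8, and 24.1% (21.2 to 27.2) lay near a gene end. Of the latter, 58.5% (55 to 61.9) were in the HA-Twi list at 40 µM, as were 36.9% (34.7 to 39.1) of the former. Many wide regions counted as shared therefore had their highest Twi summit away from the wild-type signal.

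Twi-only regions lay more often inside genes and less often at gene ends than wild-type regions. Of Twi-only regions 36% (35.1 to 37) had the highest summit within 500 bp of either end of a protein-coding gene, 50% elsewhere inside a gene and 14% outside genes. The shares were 47.5%, 43.1% and 9.42% for shared Twi regions. All wild-type regions had 50.8% near a gene end. The 6523 Twi regions outside all 4 wild-type lists were farther still from gene ends, with 25.9% (24.8 to 27) near one and 57.7% elsewhere inside a gene.

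The share near a gene end differed widely with the number of HA-Twi lists that held a region. Of the Twi-only regions 5664 (60.1%) were in none of the 5 induced HA-Twi lists; their median fold was 2.8 and 50.4% lay near a gene end. At the other extreme 561 were in all 5, with a median fold of 5.85 and 8.56% near a gene end. Shared regions showed the same order, from 77.6% near a gene end among the 1170 in no HA-Twi list to 9.39% among the 490 in all 5.

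**Figure D2:**
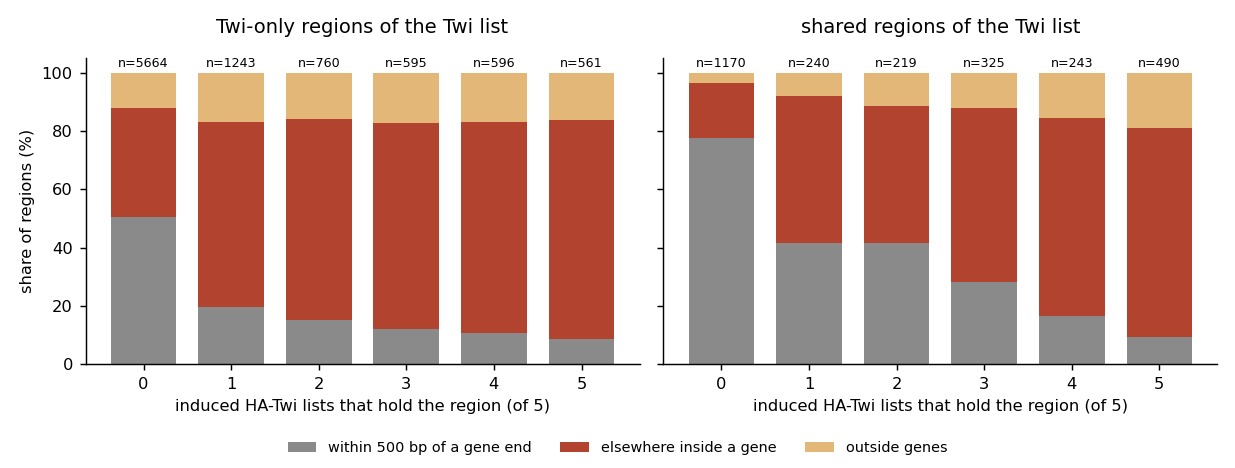
Place of the highest summit (% of regions) by the number of induced HA-Twi lists, of 5, that hold the region, for Twi-only and shared regions; n is the number of regions. The share near a gene end went from 50.4% to 8.56% in Twi-only and from 77.6% to 9.39% in shared regions.

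In each of 11 other lists, a smaller share of Twi-only than of shared regions was found. They overlapped the uninduced HA-Twi list (0 µM) in 0.191% of cases, and the lists at 10, 40 and 160 µM in 9.61%, 19.2% and 32.7%. The shares of shared regions in those 4 lists were 1.64%, 38.8%, 43.5% and 54.1%. With DMSO the shares were 14.8% of Twi-only and 21.9% of shared regions, and with taz 27.2% and 30.7%. Of the other lists of wild-type cells, the anti-Zld list held 29.2% of Twi-only and 94.3% of shared regions, the anti-HA list 5.71% and 52.3%, and the anti-Grh list 6.88% and 36.4%. The lists of the other induced factors also held both kinds. The Grh list held 48.6% of Twi-only and 92.5% of shared regions, and the Zld list 32.4% and 79.8%.

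**Figure D3:**
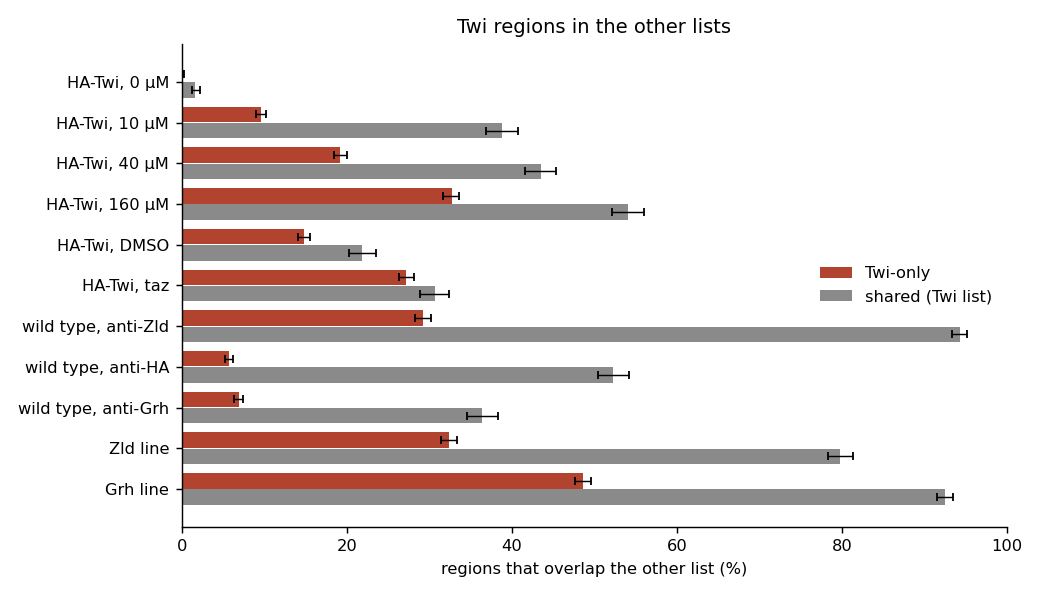
Share (%) of Twi-only and shared regions of the Twi list that overlap each other list, with 95% binomial intervals. In the wild-type anti-Zld list the values were 29.2% and 94.3%, and in the HA-Twi list at 40 µM 19.2% and 43.5%.

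The 30 Twi-only regions of highest fold (10.3 to 11.5) lay next to or in 28 genes. In 26 of them the highest summit was inside a gene, and in 1 it lay within 500 bp of a gene end. All 5 induced HA-Twi lists held 18 of them and 4 or 5 of the lists held 28. The wild-type lists held 1, near CG14207. The 3L arm carried 14 and the X chromosome 8.

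Several of these regions lay at signalling and transcription factor genes. One lay in fz, which encodes the Frizzled receptor of Wnt and planar polarity signalling (fold 11.3, at 3L, 14351925 to 14355213). Below rank 10 stood dnt (fold 10.8), which encodes a Ryk-family Wnt receptor, nmo (10.8), the Nemo kinase, and dally (10.6), a glypican that binds secreted ligands. Among transcription factor genes were mirr (10.9), an Iroquois homeobox gene whose nearest end was 25879 bp away, the Hox gene Antp (10.6), ham (10.5) and jing (10.5), a zinc finger gene. The remaining genes of this rank included cv-c with 2 of the 30 regions (10.9 and 10.3), mgl (10.6), a receptor of the LDL receptor family, flw (10.6), a protein phosphatase catalytic subunit, and Best2 (10.3), a bestrophin channel.

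Some genes held long series of Twi-only summits. The counts within the gene and 2000 bp to both sides were 47 at bun, 44 at cv-c, 34 at pum, an RNA-binding translational repressor, and 30 at both SNF4Agamma, an AMP-activated kinase subunit, and kirre. CG12535, lilli and ush followed with 28 each and luna and mtgo with 26. These are long genes: bun spans 91072 bp and kirre 394149 bp. Per 10 kb of window, bun had 4.94 Twi-only summits and kirre 0.753. The wild-type list had 8 summits at bun, 3 at cv-c and 0 at kirre.

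The shared regions of highest Twi fold were wide and lay inside genes. All 15 of the highest had their main summit inside a gene, and 10 were on the X chromosome. The first was in CG9171 (Twi fold 10.8, wild-type fold 2.26). Next came ct, the homeobox gene cut (10.7 and 2.04), Trf2, a TBP-related factor (10.1 and 1.96), rudhira (9.95 and 2.01), and Dys, the dystrophin gene (9.44 and 1.65). The nvy region, at the fly gene of the ETO co-repressor family, was 9311 bp wide with 12 summits. Traf4, a signalling adaptor with a role in gastrulation, had 9.12, and sd, which encodes the TEAD factor Scalloped, had 8.76. Of the 15 regions, 13 were in all 5 induced HA-Twi lists.

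The shared regions of highest wild-type fold were other regions of the list. The first 3 were near CG31275 (6.13) and in the Hox genes Ubx (6.08) and Abd-B (6.07), and a further one was beside the GATA factor gene grn (5.56). The other 6 of the first 10 lay at RpL15 (5.94), Slmap (5.61), Alg-2 (5.37), CkIIalpha (5.34), PlexB (5.28) and RNASEK (5.23). Of these 10 regions, the summits at RpL15, Slmap, grn, Alg-2, PlexB and RNASEK lay within 500 bp of a gene end. The Twi folds at the 10 ranged from 1.71 to 2.86.

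The 296 wild-type-only regions were narrow and mostly single. Their median width was 410 bp and 91.6% held 1 summit. Of them 46.6% (40.8 to 52.5) lay near a gene end, 28.4% were within 1000 bp of a Twi region, and the median distance to one was 2376 bp. In the other 3 wild-type lists, 82 of the 296 were not found, and 195 (65.9%) were in the anti-Zld list. The induced HA-Twi lists held none of 217.

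The 15 wild-type-only regions of highest fold were all in at least 1 other wild-type list, and 13 lay within 500 bp of a gene end. Their genes included CG17528 (6.51), CG10417 (6.33), 4E-T (6.33), which encodes a binding partner of the translation factor eIF4E, Nipped-A (5.95), a subunit of histone acetyltransferase complexes, Spf30 (5.8), a splicing factor, Tim17b (5.32), a mitochondrial import protein, and the ribosomal gene RpL10 (5.31). The exceptions in position were ftz (6.12), a pair-rule homeobox gene with its nearest end 4772 bp away, and toc (5.18). None of the 15 was on the X chromosome.

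Genes were then counted as holding a summit when one lay in the gene or within 2000 bp of it. Of 13922 protein-coding genes, 57.7% had a Twi-only summit, 67.4% any Twi summit, 28.7% a wild-type summit and 3.02% a wild-type-only summit. A Twi-only summit without a wild-type summit was found at 39.4%, and neither kind of summit at 31.7%. With backgrounds this high a count over a short list says little by itself. Gene length also enters: in 4 groups of nearly equal size by gene length, the share with a Twi-only summit was 38.4% in the shortest and 73.7% in the longest. The median of the highest Twi-only fold was 3.34 over all genes with such a summit.

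**Figure D4:**
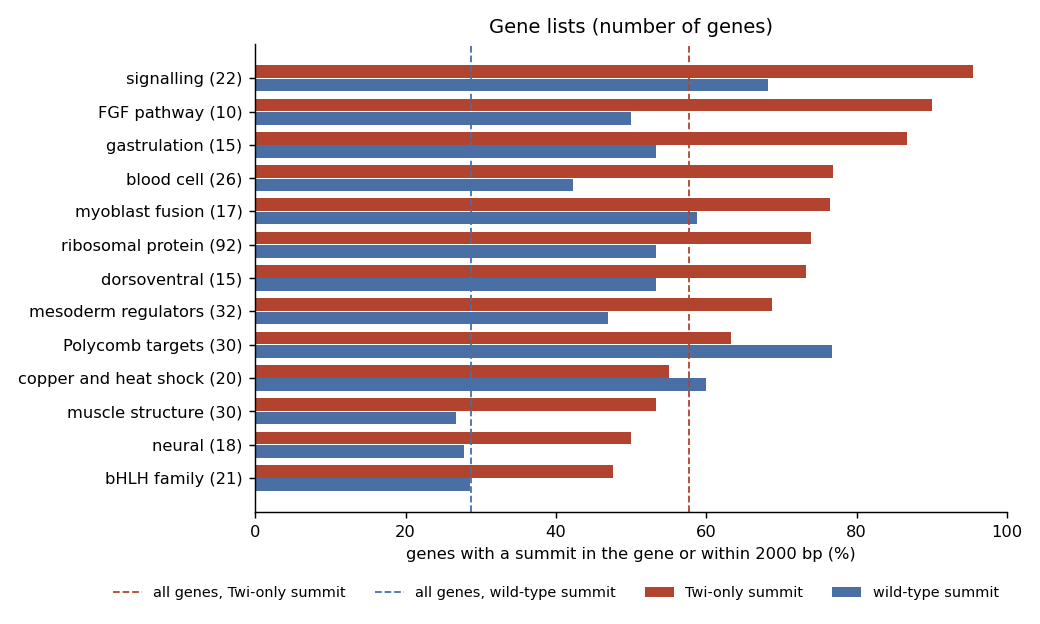
Genes (%) of each list with a Twi-only summit and with a wild-type summit in the gene or within 2000 bp; the number of genes is in parentheses and dashed lines mark all 13922 protein-coding genes (57.7% and 28.7%). Polycomb targets and the copper and heat shock list had a wild-type summit more often than a Twi-only one.

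FGF signalling drives the spreading of the mesoderm after invagination. Of 10 genes of this pathway, 9 (90%) had a Twi-only summit, with a median fold of 5.93. Over all genes the share was 57.7%, and over genes of at least 5000 bp 73.7%. The median span of the 10 genes was 23027 bp. The receptor gene of the mesoderm, htl (3R, 18045216 to 18052984), had 2 Twi-only summits with folds of 8.72 and 6.49. Its ligand genes pyr and ths had 9 and 5, with highest folds of 8.82 and 8.26. The adaptor gene stumps (3R, 14577217 to 14608079) had 6, of which the 4 inside the gene had folds of 7.79, 6.16, 5.54 and 4. None of these 4 genes had a wild-type or a shared summit. The HA-Twi list at 40 µM had 4 summits at htl, 3 at pyr, 1 at ths and 0 at stumps. The gene of the other FGF receptor, btl, which acts in the trachea, had no summit in either list, while its ligand gene bnl had 11 Twi-only summits (highest fold 5.02) and 4 wild-type summits. Pathway genes shared with other receptors held both kinds: pnt, an ETS activator, had 19 Twi-only and 16 wild-type summits, sty, a Ras pathway inhibitor, 10 and 7, and aop, an ETS repressor, 9 and 6.

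**Figure D5:**
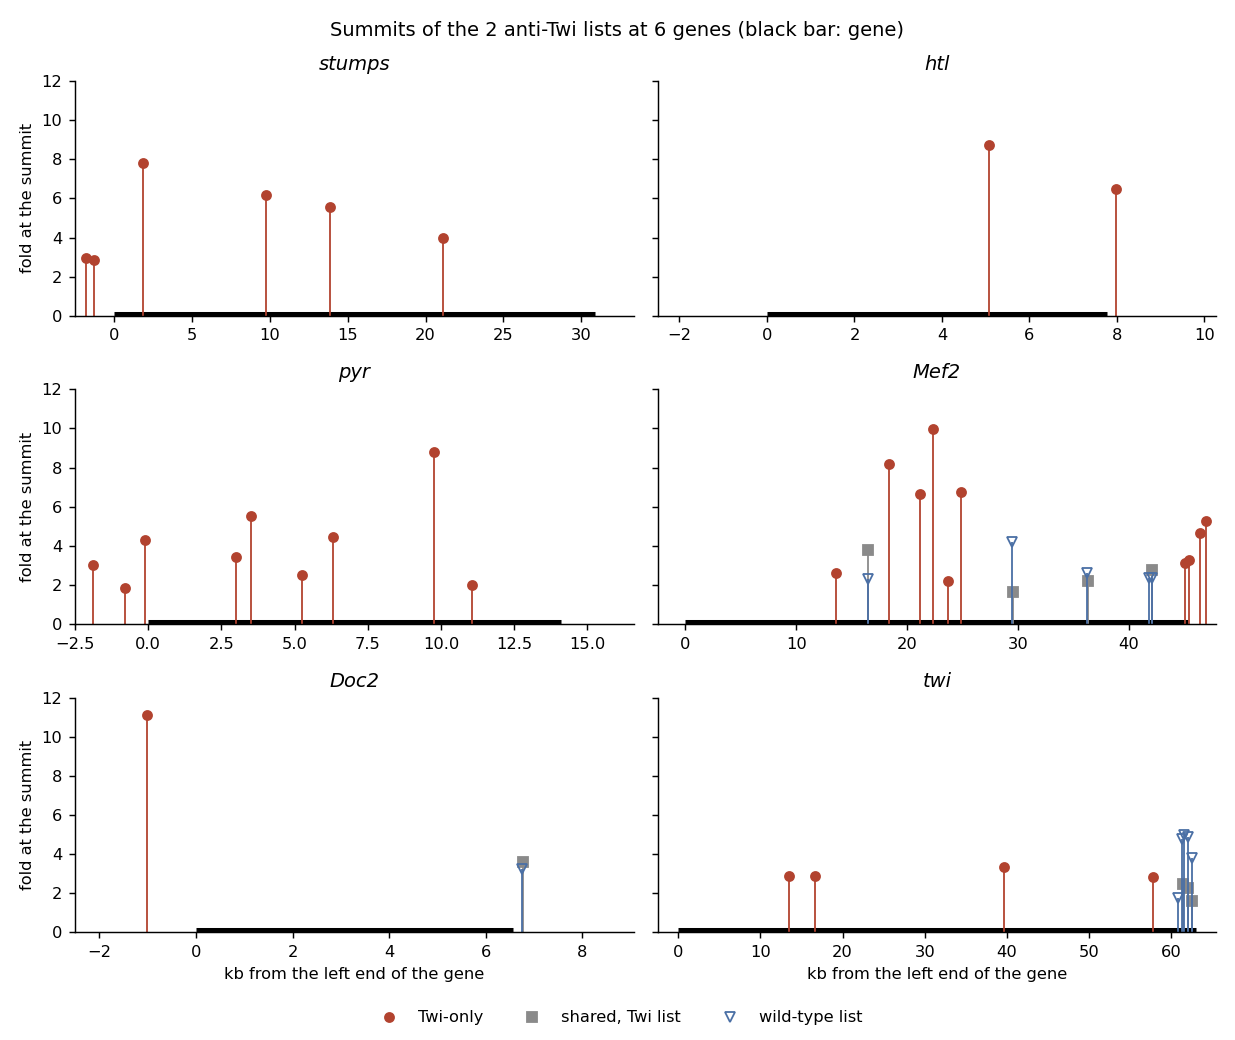
Summits of the 2 anti-Twi lists at 6 genes, by distance (kb) from the left end of the gene (black bar), against the authors' fold. Circles are Twi-only summits, squares Twi summits of shared regions and triangles wild-type summits; folds of the 2 lists cannot be compared. The genes stumps, htl and pyr show Twi-only summits alone, and Mef2 shows 10 Twi-only summits beside 4 shared ones.

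Among 32 regulators of the mesoderm and its derivatives, 22 (68.8%) had a Twi-only summit and 12 of them (37.5% of the list) no wild-type summit. The shares of all genes were 57.7% and 39.4%, and 73.7% of genes of at least 5000 bp had a Twi-only summit. Neither kind of summit was found at 5 of the 32, against 31.7% of all genes. The median span of the list was 5226 bp. The median Twi-only fold of the list was 4.48. Mef2, the muscle differentiation factor (2R, 9913496 to 9958858), had 10 Twi-only summits with a highest fold of 9.99. The wild-type list had 5 summits there with a highest fold of 4.18, and 4 Twi summits lay in regions shared with them. At how, which encodes an RNA-binding protein of muscle and tendon, there were 13 Twi-only summits (highest fold 8.44) and 3 wild-type summits (2.6). At zfh1, a zinc finger homeobox gene of the mesoderm, there were 10 Twi-only (6.74) and 4 wild-type summits (2.45), and at the GATA factor gene pnr 9 (4.59) and 3 (4.45). At kn there were 7 Twi-only summits (5) and no wild-type summit. The Twi-only summit beside the T-box gene Doc2 had a fold of 11.1 and lay 1017 bp outside the gene; a wild-type summit (3.22) lay near its other end. Its neighbour Doc3 had 2 Twi-only summits (5.51) and the T-box gene org-1 had 1 (9.54), both without a wild-type summit.

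Other members also had Twi-only summits and no wild-type summit. HLH54F, a bHLH gene of visceral muscle, had 5 (highest fold 3.46), Hand, a bHLH gene of heart and visceral muscle, 3 (5.49), nau, the fly MyoD gene, 2 (5.15), lms 1 (5.14) and bap, a homeobox gene of visceral muscle, 1 (3.86). By contrast bin and lbe each had 1 Twi-only summit (2.04 and 2.24) beside 1 wild-type summit (2.6 and 4.81), and Doc1 and mid had 1 wild-type summit each (2.54 and 4.31) and no Twi-only summit. The heart gene tin had shared summits only, 3 in the Twi list (highest fold 3.35) and 2 in wild type (2.6). Neither list had a summit at sna, the repressor that acts with Twi in the presumptive mesoderm, nor at Kr, lmd, l(1)sc or Him.

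The twi gene itself (2R, 22985374 to 23048325) had 4 Twi-only summits with folds of 2.84 to 3.32. Near its right end a region of 1803 bp in the Twi list had 3 summits (2.46, 2.29 and 1.62). It overlapped a wild-type region of 2027 bp with 5 summits, whose folds were 1.77, 4.79, 4.98, 4.86 and 3.79. The wild-type cells carry no construct per the labels; whether DNA of a construct adds to either region was not tested. Peak lists hold no protein or RNA level, so they give no direct check of Twi expression.

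Genes of gastrulation held Twi-only summits in 13 of 15 cases (86.7%), with a median fold of 5.13. The share was 57.7% over all genes and 73.7% over genes of at least 5000 bp. The median span of this list was 17464 bp. The secreted signal gene fog, a cue for apical constriction of the mesoderm, had 5 (highest fold 4.2), and its receptor gene mthl1 had 4 (3.83). T48, which encodes a membrane protein of the same step, had 5 (5.55). The G alpha gene cta had 5 (6.39) and Gprk2, a receptor kinase, 15 (7.65). Of these, fog and mthl1 had no wild-type summit.

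Dorsoventral genes outside the mesoderm had Twi-only summits in 11 of 15 cases (73.3%), against 57.7% of all genes. Their median span was 16031 bp, and the share was close to the 73.7% of genes of at least 5000 bp. The highest folds were at sog (8.86), a BMP inhibitor of the neuroectoderm, Meltrin (6.74), sim, a regulator of the midline (6.63), and zen (5.22). No summit of either list was found at ind, vnd or dpp.

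Genes of myoblast fusion had a Twi-only summit in 13 of 17 cases (76.5%), with a median fold of 4.52. That share was near the 73.7% of genes of at least 5000 bp and above the 57.7% of all genes. The median span of the list was 9762 bp. The adhesion receptor gene kirre had 30 (highest fold 9.34), and the scaffold gene rols 7 (8.51), both without a wild-type summit. The gene of the related receptor, rst, lies inside the kirre span, and its 1 Twi-only summit (4.39) is among the 30 of kirre. Swip-1 had 8 (8.63) and siz, an Arf exchange factor, 11 (7.59), each beside wild-type summits. The receptor gene sns had 1 (3.08) and hbs no summit in either list. Crk, on chromosome 4, had a wild-type summit (4.27) and no Twi summit.

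Muscle structure genes had a Twi-only summit in 16 of 30 cases (53.3%), against 57.7% of all genes and 73.7% of genes of at least 5000 bp. Neither kind of summit was found at 11 (36.7%), against 31.7% of all genes. The median span of the list was 8849 bp. High values stood at a few of its genes. Prm, the paramyosin gene, had 2 Twi-only summits (10.2 and 4.33), Act87E, a muscle actin, 2 (9.48 and 5.66), wb, a laminin subunit, 10 (8.74), and if, an integrin subunit, 10 (6.63), all without wild-type summits. Msp300 had 11 (7.89) and 5 wild-type summits. At these genes the HA-Twi list at 40 µM had 2 summits at Act87E, 3 at if, 4 at Msp300 and 0 at Prm and wb. Neither list had a summit at Mhc, Mlc1, Mlc2, Tm2, wupA or bt, or at the actin genes Act57B, Act79B and Act88F.

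Other bHLH genes did not stand above the background, with a Twi-only summit in 10 of 21 (47.6%), against 57.7% of all genes. The highest folds were at crp (7.58), cyc (6.16), Mnt (5.52) and net (4.97). At da, whose product is the common partner of bHLH factors, there were 2 (2.42) beside 2 wild-type summits. The proneural genes sc, ac and ato had no summit.

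Blood cell genes, which reflect the character of S2 cells, had Twi-only summits in 20 of 26 cases (76.9%), with a median fold of 4.68. Of all genes 57.7% had such a summit, and of genes of at least 5000 bp 73.7%. The median span of the blood cell list was 7902 bp. Pvf2, a ligand of the PVR receptor, had 8 (highest fold 9.27) and no wild-type summit, and Pvf3 had 11 (8.83). Pxn, peroxidasin, had 11 (7.43) and the collagen IV genes vkg and Col4a1 had 12 and 3, each with a highest fold of 7.14. These 2 genes are neighbours with overlapping windows, so a summit can count for both. The blood GATA factor gene srp had 9 Twi-only and 7 wild-type summits. Hml and eater, both hemocyte genes, had none.

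Signalling genes had Twi-only summits in 21 of 22 cases (95.5%) and wild-type summits in 15 (68.2%), against 57.7% and 28.7% of all genes. They are long, with a median span of 16285 bp against 2163 bp over all protein-coding genes. The Wnt receptor genes fz, arr and fz2 had highest folds of 11.3, 9.94 and 9.39, and the Notch receptor gene N had 9.12. At fz2 there were 17 Twi-only summits and no wild-type summit.

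Polycomb target genes were the list most often marked in wild type: 23 of 30 (76.7%) had a wild-type summit, against 28.7% of all genes. A Twi-only summit was found at 19 (63.3%), against 57.7% of all genes. Only 1, B-H2, had neither kind, against 31.7% of all genes. The median span of the list was 15979 bp. Of genes of at least 5000 bp, 45.3% had a wild-type and 73.7% a Twi-only summit. At Ubx the single wild-type summit (6.08) stood beside 12 Twi-only summits (highest fold 7.18), at Abd-B 3 wild-type summits beside 8 (7.91), at Antp 6 beside 7 (10.6) and at inv 1 beside 8 (8.18). By contrast en, eyg and oc had shared Twi summits only.

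Neural genes had Twi-only summits in 9 of 18 cases (50%), against 57.7% of all genes and 73.7% of genes of at least 5000 bp. The median span of this list was 27248 bp. Ribosomal protein genes had Twi-only summits in 68 of 92 (73.9%), against 57.7% of all genes, and wild-type summits in 49 (53.3%), against 28.7%. They are short, with a median span of 1315 bp. Of genes of 1179 to 2163 bp, 56.1% had a Twi-only and 23.8% a wild-type summit. The median Twi-only fold of the ribosomal protein genes was 2.84, lower than the 3.34 of all genes. The highest were RpS14b (4.76), RpL10 (4.69) and RpL7 (4.48). Of 20 copper and heat shock genes, 11 (55%) had a Twi-only and 12 (60%) a wild-type summit, against 57.7% and 28.7% of all genes. MtnA, the metallothionein gene, had 1 wild-type summit (3.49) and 1 Twi-only summit (3.05). The highest Twi-only folds of this list were at Hsp23 and Hsp67Ba, both 6.23, which share a summit, and at ATP7, a copper transporter (6.13).

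The X chromosome carried 16.5% (15.7 to 17.2) of Twi-only and 12.7% (11.5 to 14) of shared regions. The median fold of Twi regions was 3.51 on X, 2.98 to 3.15 on the 4 large autosomal arms and 2.78 on chromosome 4.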

How the data were processed

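ChIP-seq peak lists of Twi-expressing and wild-type S2 cells, each tied by the labels to 2 libraries, were compared. Per the submitters' processing notes, the tools were Bowtie2 2.4.4, MACS2 2.2 and deepTools 3.5.1 on the build dm6; no settings are given. The deposited narrowPeak lists give a fold (a ratio of immunoprecipitation to local background) and, for each summit, a −log10 p-value and the −log10 of its q-value, all computed by the authors. Gaps in the peak numbers show that peaks were removed; what filter was used is not given in the sources. Of the lists deposited, 13 were used. Other lists of the series were not used here.

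Rows with the same coordinates were joined to 1 region with its highest summit. An overlap of 1 bp or more made a region shared. Summits were placed against 13922 protein-coding genes of a RefSeq table on the same assembly as dm6. That table has no strand, so the planned distance to a gene start was replaced by the distance to either gene end (500 bp), and exons and introns were not separated. Summits were counted per gene in the span and 2000 bp to both sides. A Poisson model turned the fold and −log10 p-value (up to 250) of a summit back into its local background; 100% of the summit pileups came out whole in both anti-Twi lists (relative tolerance 0.0001). The counts behind the lists limit the precision, and depth itself is not stated. Scripts used Python 3.11.15, pandas 2.3.3, numpy 2.4.6 and scipy 1.17.1 and were tested on simulated data. Intervals are exact binomial at 95%.

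Members and gene lists were chosen with earlier results of these data known. Named genes are those nearest to the 30 Twi-only, 15 shared and 15 wild-type-only regions of highest fold, the 10 with most Twi-only summits, the members of the mesoderm, FGF, fusion and muscle lists, and of each other list up to 4 with and 3 without a Twi-only summit; some of these are left out, and genes named beyond the rule were chosen after their values were seen. Of the 13 gene lists, 1 listed symbol had no match. Alternatives covered the overlap rule, stricter thresholds, the control lists, windows and the HA-Twi list. No genome sequence was used, so motifs were not counted.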

Additional observations from a re-analysis of the deposited data

How the results depend on the processing

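Of 50 alternatives to the reported values, 25 stayed within their interval or, for counts, within 1.5 times, and 25 moved further. The share of Twi regions in the wild-type list was 15.4% when highest summits had to lie within 250 bp, 18.4% with a −log10 q of at least 10, 9.22% with folds at or above the median, 46.1% against all 4 wild-type lists and 14.4% with lists of the same length, an alternative chosen after seeing the data. For wild-type regions in the Twi list, the values were 86.4% by summits, 36.4% above the median, 89.7% for all 4 wild-type lists and 16.9% at the same length. Twi-only regions numbered 5496 above the median and 2792 at the same length; wild-type-only regions numbered 1037, 2709, and 1382 for all 4 lists. Fewer regions entered the stricter and equal-length settings by construction. Near a gene end lay 29.3% of Twi-only and 39.1% of shared regions within 250 bp, 44.6% and 58.3% within 1000 bp, and 25.9% and 53.4% against all 4 wild-type lists. The HA-Twi list held 14.8% and 21.9% with DMSO and 32.7% and 54.1% at 160 µM; of regions shared with any wild-type list, 31.2%. The cause of these shifts was not tested. The counts of genes and of mesoderm regulators with a Twi-only summit stayed within 1.5 times in every alternative run. The motif result and its 4 alternatives were not run, since no genome was used. No paired analysis was possible because each list pools its 2 libraries, and for the same reason no replicate could be left out.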

Other observations

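A few genes had more wild-type than Twi summits, a comparison chosen after the values were seen. Of 3999 genes with a wild-type summit, 268 had fewer Twi than wild-type summits and 5 fell short by 4 or more. These 5 were Hsp83, which encodes the Hsp90 chaperone (12 wild-type and 6 Twi summits), its neighbour CG14966 (7 and 3), Hsp68 (7 and 2), its neighbour CG6000 (5 and 0) and grh (6 and 2). The summits at these 2 heat shock genes were low, with highest wild-type folds of 1.98 at Hsp83 and 2.2 at Hsp68, and lay in wide regions of up to 2477 bp and 2392 bp. None of them was in a wild-type-only region. The windows of CG14966 and CG6000 overlap those of Hsp83 and Hsp68, so the same summits can count for both neighbours. Other heat shock genes went both ways. Of these, Hsp22, Hsp26, Hsp67Ba, Hsp23 and Hsp27 lie together on 3L (9372931 to 9385694). Their neighbouring windows overlap too, so their counts are not independent. Hsc70-4 had 4 wild-type and 2 Twi summits, and Hsp27 had 3 and 1. At Hsp23, 4 wild-type summits stood beside 1 Twi-only and 2 shared Twi summits. Hsp26 had 2 of each kind. By contrast Hsp22 had 1 wild-type and 4 Twi summits, Hsp67Ba 2 and 3, and Hsp70Aa 0 and 1. At grh, 5 of the 6 wild-type summits were in regions that the Twi list did not hold, and the highest wild-type fold at the gene was 2.83.

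The genes with most wild-type summits were also dense in Twi summits. Tlk, a kinase gene, had 21 wild-type and 41 Twi summits, and Eip74EF, an ecdysone-induced ETS factor, had 18 and 17. The genes tara and ush followed with 17 wild-type summits each and 30 and 43 Twi summits.

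Wild-type-only regions were more frequent on chromosome 4 and at the proximal end of 2R than other regions were. Of the 296, 38 (12.8%, 9.25 to 17.2) lay on chromosome 4 or below 6 Mb of 2R, against 3.19% (2.61 to 3.85) of all wild-type regions and 1.54% (1.32 to 1.77) of Twi regions. These limits were chosen after the values were seen, and neighbouring regions are not independent.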
